A study of Mus musculus with 24 samples.

Results

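Nuclear receptors are transcription factors whose activity is set, in many members, by a small fat-soluble ligand. Their transcripts were followed here through the ileum and the liver of mice given GW3965, a compound made to activate LXR, the receptors of the liver X class. The members were chosen by gene symbol and not by any measured value. They are 43 nuclear receptor genes of the 40481 genes in the table of each tissue, without Nr0b2, Nr1d1 and Nr1d2. A gene was tested where it reached 0.5 CPM (assigned reads counted per M) in at least 3 libraries of a tissue, which 37 members did in the ileum and 36 in the liver. The low-abundance members were accounted for as well: Rxrg passed in the liver alone, Rorb and Pgr in the ileum alone, and Esr2, Nr2e1, Nr2e3, Nr5a1 and Nr0b1 in neither tissue.

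As background, a typical nuclear receptor holds a DNA-binding domain of zinc fingers and a pocket that takes up its ligand, and ligand binding swaps corepressors for coactivators on target genes. Receptors for oxysterols (LXR), bile acids (FXR), fatty acids (PPAR), foreign compounds (PXR and CAR), retinoic acid, thyroid hormone and vitamin D bind DNA as partners of a retinoid X receptor (RXR). Steroid receptors and HNF4 receptors bind as pairs of their own kind, and some members, such as the NR4A group, work without a known natural ligand. In ileum and liver the family is known for linking bile acids, cholesterol, lipids and foreign compounds to the genes that absorb, convert and export them.

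All mice were C57BL/6 and had undergone resection of 75% of the small bowel 10 weeks earlier. The floxed mice were Abca1 fl/fl, and the Villin-Cre mice were Abca1 fl/fl X Villin-Cre, in which Cre under the Villin promoter of the intestinal epithelium deletes the gene of the cholesterol exporter ABCA1, while by design other cell types of the ileum and the liver keep it. Each genotype received by mouth either vehicle (0.5% carboxymethyl cellulose) or GW3965 at 1 mg/kg/day, given 2 times a week over the last 5 weeks. With 3 libraries in each of the 4 groups per tissue there were 24 libraries, and neither age nor sex nor the number of animals behind a library is stated. The study's title frames the question as one of intestinal LXR activation by a low dose taken orally. No group without resection and no Abca1 wild-type group was compared, so floxed alleles and surgery are shared by every group.

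Ileal libraries held 17.001 to 24.2 M assigned reads and liver libraries 26.5 to 32.3 M. Abca1, the targeted gene, averaged 57.16, 372.4, 28.26 and 53.78 CPM in the ileum of floxed vehicle, floxed GW3965, Villin-Cre vehicle and Villin-Cre GW3965 mice, and it was lower in Villin-Cre than in floxed ileum in vehicle (log2 fold change -1.01 ± 0.14 SE, limma adjusted p = 3.5e-05) and under GW3965 (-2.74 ± 0.14, adjusted p = 2.5e-10). Liver Abca1 averaged 335.5, 470.2, 225.1 and 379.4 CPM in that order, so it was lower with Villin-Cre there too (-0.57 in vehicle and -0.31 under GW3965, both called). The enterocyte list was higher in the ileum and the hepatocyte list in the liver. The 5 bile duct markers, in contrast, summed to 2033 to 2570 CPM in the ileum and 48.45 to 281.8 CPM in the liver. The summed level of 8 enterocyte markers was 4954 to 16250 CPM in the ileum and 213.6 to 3843 CPM in the liver. That of 6 hepatocyte markers was 49850 to 77210 CPM in the liver and 1457 to 9765 CPM in the ileum, so neither list is confined to its tissue. A single gene could make up most of a sum outside the tissue. Apoa4 held 1645 to 1692 of 1717 to 1764 CPM of enterocyte markers in floxed vehicle liver. Apoa1 held 9546 to 9672 of 9642 to 9765 CPM of hepatocyte markers in Villin-Cre GW3965 ileum. Most libraries of a group were very close: in 9 of 12 ileal and 10 of 12 liver pairs within a group, the variance between libraries was 2.58 to 3.39 times that of read sampling. This ratio takes each counted read as an independent draw. Even numbers made up 65.5 to 70.4% of low read numbers, so reads may not be independent. The ratios may then overstate the spread beyond sampling. Replicate 3 of floxed GW3965 ileum stood apart from its group (8.04 and 8.43 times), as did replicate 1 of floxed GW3965 liver (10.07 and 10.18 times), while pairs from different groups ranged from 7.26 to 56.3 times. Nothing says that the libraries of a group came from separate animals, so p-values measure the spread between these libraries, which may be technical. When close libraries were averaged to 1 value, 5 values and 1 residual degree of freedom remained per tissue, and 9 of the 150 calls described below held. They were Nr1i3, Ppara and Nr4a1 in ileum for GW3965 in Villin-Cre mice, Nr4a1 in ileum between genotypes under GW3965, and Nr1i3, Nr4a1, Esrrg, Nr4a3 and Nr1h4 in liver between genotypes under GW3965. In bulk tissue, fewer cells of a type and less RNA per cell cannot be told apart.

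Members are compared with each other only per kilobase of annotated exon, as CPM per kb. The family took 0.291 to 0.374% of ileal and 0.251 to 0.293% of liver reads. In the ileum, Hnf4a, which keeps the enterocyte programme of gene expression, stood first at a mean of 194 CPM per kb, 26.2% of the sum over the 43 members. Its paralogue Hnf4g followed at 70.3, the vitamin D receptor Vdr at 64.7, the bile acid receptor Nr1h4 (FXR) at 62.2 and the estrogen-related receptor Esrra at 48.7 CPM per kb. In the liver, Hnf4a also stood first at 128 CPM per kb (21.6%), and the RXR subunit Rxra came next at 99.99 (16.9%), ahead of the fatty acid receptor Ppara at 50.6, Nr1h3 (LXRα) at 41.3 and Nr1h4 at 37.1 CPM per kb. LXRβ, encoded by Nr1h2, reached 27.8 CPM per kb in the ileum and 21.4 in the liver, against 14.8 and 41.3 for Nr1h3, so the order of the LXR pair differed between the tissues as described by these levels. No test across tissues was run. Nr0b1, which encodes the receptor DAX1 of steroid-producing tissue, had 0 reads in all 24 libraries.

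**Figure D1:**
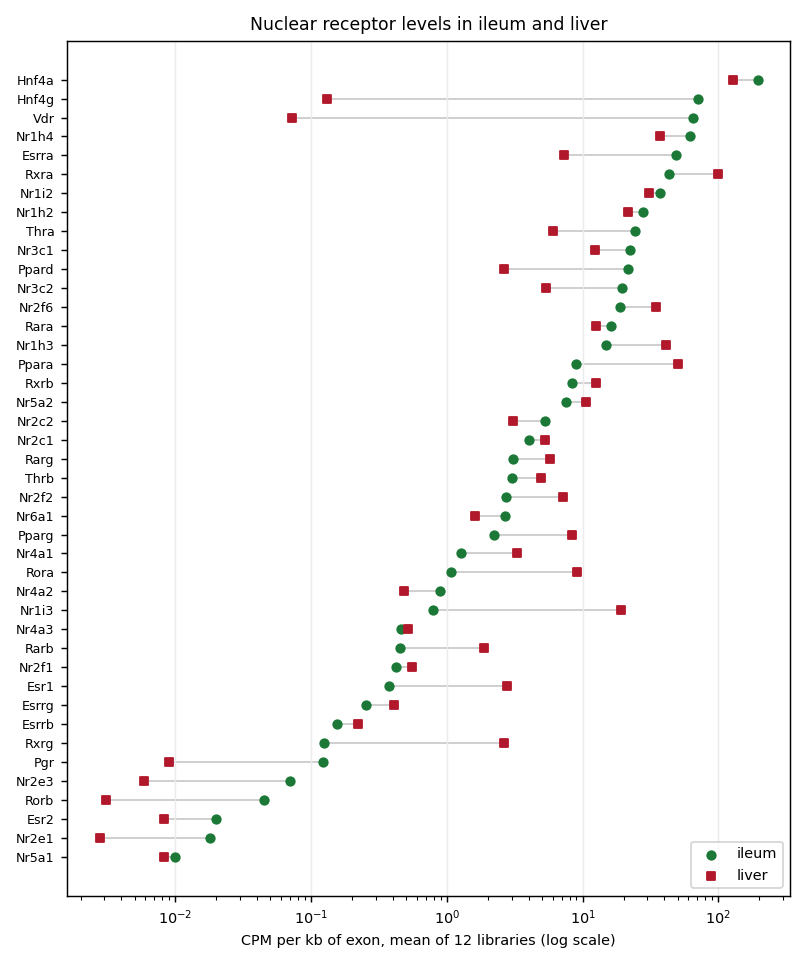
Mean level of 42 of the 43 members (Nr0b1, with 0 reads, is left out) in ileum (circles) and liver (squares), in CPM per kb of annotated exon on a log axis, over the 12 libraries of each tissue. Hnf4a stands first in both tissues (194 and 128 CPM per kb), and Rxra is second in the liver (99.99).

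In the ileum, GW3965 raised more members of the family than it lowered in each genotype. In floxed mice 15 of 37 tested members were higher and 2 lower (limma, adjusted p under 0.05), where 14.7% of all 18656 tested genes were higher and 20.9% lower. In Villin-Cre mice 20 members were higher and 7 lower, against 21.5% and 31.1% of all genes. The median log2 fold change over the tested members was 0.21 in floxed and 0.23 in Villin-Cre mice, beside -0.08 and -0.11 over all tested genes. Without floxed GW3965 replicate 3, the library apart from its group, the floxed split was 15 higher and 3 lower. These comparisons share no library, and 13 members rose in both, which is 86.7% of those that rose in floxed and 65% of those that rose in Villin-Cre mice; over all genes the shares were 63.6% and 43.4%. The 13 were Hnf4a, Nr1h4, Nr1i2, Nr2c2, Nr3c1, Nr3c2, Nr6a1, Ppara, Pparg, Rara, Rxra, Thra and Thrb. The level of the family summed over its 43 members per kb was 686.7 ± 4.5 (SD, n = 3) in floxed vehicle and 796.1 ± 25.3 in floxed GW3965 ileum, and 650.8 ± 11.1 and 827.2 ± 4.1 CPM per kb in the Villin-Cre groups.

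The composition of the ileal libraries moved with the same comparisons. The summed level of 8 smooth muscle markers was 6334 to 6411 CPM in floxed vehicle, 2443 to 3685 in floxed GW3965, 6729 to 7037 in Villin-Cre vehicle and 875.6 to 881.3 CPM in Villin-Cre GW3965 libraries, and none of the markers was at 0. The 8 enterocyte markers ran the other way, at 4954 to 5195, 7327 to 9257, 6605 to 6691 and 15790 to 16250 CPM. Gm26917, a predicted gene outside the family, held 10.4 to 11.6%, 6.56 to 7.91%, 11.5 to 12.2% and 3.92 to 4.20% in the same order. The part of these differences in the values of the members was not tested.

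**Figure D2:**
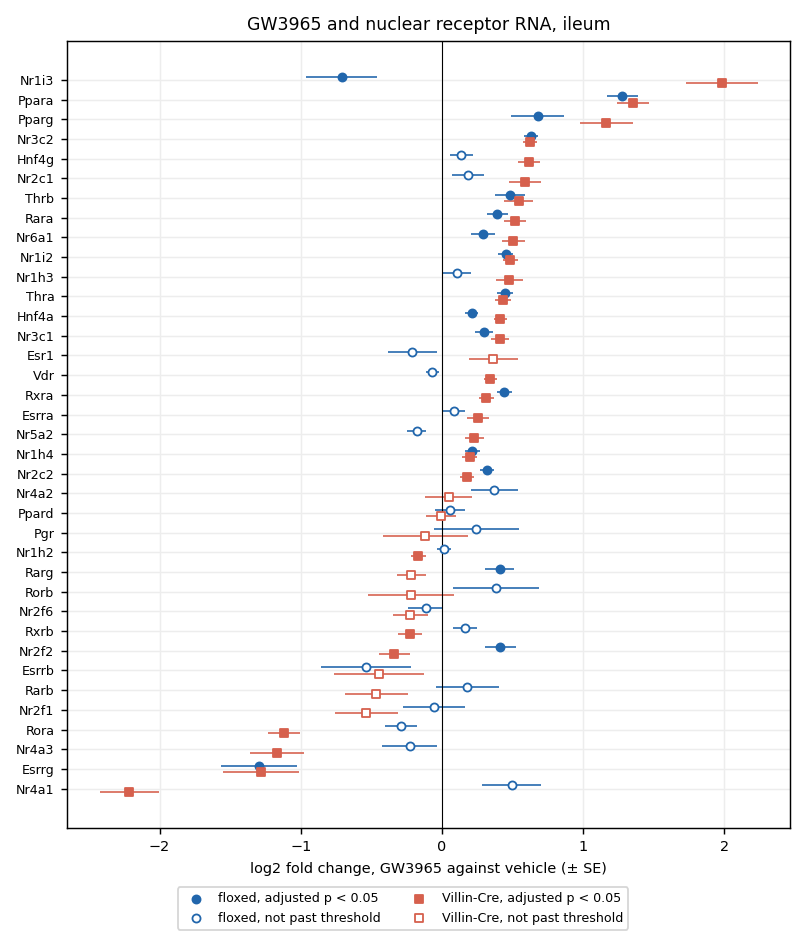
Log2 fold change of every tested member in ileum, GW3965 against vehicle, in floxed and in Villin-Cre mice, with bars of 1 standard error from the limma fit (3 libraries a group) and filled symbols for an adjusted p under 0.05. Ppara, Pparg, Nr3c2 and Nr1i2 lie above 0 in both genotypes, Esrrg lies below 0 in both, and Nr1i3 and Nr4a1 lie on opposite sides.

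The receptors that GW3965 binds are Nr1h2 and Nr1h3. Nr1h2 measured 98.2, 94.8 and 100.7 CPM in floxed vehicle, 100.1, 96.7 and 99.6 in floxed GW3965, 93.1, 91.0 and 95.4 in Villin-Cre vehicle and 81.9, 81.8 and 85.1 CPM in Villin-Cre GW3965 libraries. The floxed groups overlapped, and the Villin-Cre GW3965 libraries were the lowest of the 12. The change was 0.01 ± 0.05 in floxed and -0.17 ± 0.05 (adjusted p = 0.012) in Villin-Cre mice, and the latter was -0.05 and not called after rescaling by the median of gene ratios. Nr1h3, whose own gene is a known LXR target in human macrophages, measured 35.6, 32.3 and 34.4 CPM in floxed vehicle and 33.7, 33.4 and 44.1 in floxed GW3965 libraries, which overlapped (0.11 ± 0.10, adjusted p = 0.42). The Villin-Cre levels were 32.7, 30.0 and 34.6 CPM in vehicle and 44.6, 47.6 and 44.0 under GW3965, with no overlap (0.48 ± 0.10, adjusted p = 0.00049). Nr1h3 thus rose in Villin-Cre ileum.

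Among the RXR partners, Rxra measured 192.3, 194.1 and 207.4 CPM in floxed vehicle and 257.8, 268.8 and 279.98 CPM in floxed GW3965 libraries. With Villin-Cre, the libraries held 212.2, 205.5 and 227.4 CPM in vehicle and 267.3, 269.6 and 264.3 CPM under GW3965. The groups did not overlap in either genotype, and Rxra rose by 0.44 ± 0.05 (adjusted p = 5.6e-06) and 0.31 ± 0.05 (adjusted p = 9.3e-05) on the log2 scale. Rxrb measured 34.0, 36.6 and 35.4 CPM in floxed vehicle, 40.4, 34.3 and 44.8 in floxed GW3965, 30.4, 31.8 and 31.4 in Villin-Cre vehicle and 26.8, 26.0 and 27.1 CPM in Villin-Cre GW3965 libraries. The floxed groups overlapped, while the Villin-Cre groups did not (-0.22 ± 0.09, adjusted p = 0.037), a call that rescaling removed (-0.11).

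Beside these receptors stand the transcripts they are known to control. Of 9 tested LXR target genes, all 9 rose in floxed ileum (median 2.21) and 7 rose and none fell in Villin-Cre ileum (median 1.09). Abcg8 and Abcg5, whose products pump sterols back into the gut lumen, rose by 2.09 and 2.27 in floxed and by 1.26 and 1.31 in Villin-Cre mice. Scd1, a fatty acid desaturase, rose by 1.84 and 1.09. Of genes that make or break down oxysterols, the natural LXR ligands, Cyp27a1 rose by 1.23 and 1.91, while Cyp39a1 fell by 0.71 and 0.89 on the log2 scale.

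Ppara, the receptor that drives fatty acid oxidation, showed the largest rise of a member in floxed ileum. It measured 25.4, 23.7 and 26.2 CPM in floxed vehicle and 65.97, 72.9 and 48.5 CPM in floxed GW3965 libraries. Villin-Cre libraries measured 13.6, 14.02 and 14.2 CPM in vehicle and 36.1, 35.9 and 37.2 CPM under GW3965. GW3965 and vehicle libraries did not overlap in either genotype, and both Villin-Cre groups lay below their floxed counterparts. The log2 fold change was 1.28 ± 0.11 (adjusted p = 1.3e-07) in floxed and 1.36 ± 0.11 (adjusted p = 2.1e-08) in Villin-Cre mice.

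Pparg, known as the receptor of fat storage and also present in gut epithelium, was far lower. It measured 3.80, 5.88 and 3.83 CPM in floxed vehicle and 6.18, 7.86 and 8.24 CPM in floxed GW3965 libraries. Among Villin-Cre libraries it measured 5.14, 4.38 and 3.34 CPM in vehicle and 10.2, 10.4 and 9.76 CPM under GW3965. Neither pair of groups overlapped, and Pparg rose by 0.68 ± 0.19 (adjusted p = 0.0087) and 1.17 ± 0.19 (adjusted p = 4.9e-05). Beside it, the summed level of 6 adipocyte markers was 88.9 to 94.8, 148.9 to 176.1, 59.3 to 62.7 and 136.3 to 149.6 CPM in floxed vehicle, floxed GW3965, Villin-Cre vehicle and Villin-Cre GW3965 libraries, with no marker at 0. All 6 rose in floxed mice, with Adipoq at 1.06 and Plin1 at 1.10, and 3 rose and none fell in Villin-Cre mice, with Fabp4 at 1.20. Their part in the rise of Pparg was not tested. Ppard, the third PPAR, did not pass the test (0.06 ± 0.10 and -0.01 ± 0.10). Of 11 tested PPARα target genes 8 rose and none fell in floxed ileum (median 0.57), and 10 rose and 1 fell in Villin-Cre ileum (median 0.98). Among them Ehhadh, an enzyme of peroxisomal fatty acid oxidation, rose by 0.57 and 0.92.

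The xenobiotic receptors differed from each other. Nr1i2 (PXR), which senses drugs and bile acids, rose from 78.5 ± 1.92 to 107.7 ± 4.10 CPM in floxed and from 80.05 ± 1.82 to 112.3 ± 0.267 CPM (SD, n = 3) in Villin-Cre ileum, with log2 fold changes of 0.45 ± 0.05 and 0.49 ± 0.05. Nr1i3 (CAR), its relative, moved in opposite directions. It measured 3.80, 4.94 and 4.99 CPM in floxed vehicle and 3.60, 2.26 and 2.09 CPM in floxed GW3965 libraries. In Villin-Cre mice it measured 1.85, 0.876 and 0.646 CPM in vehicle and 5.71, 5.61 and 5.54 CPM under GW3965. Each pair of groups was separate, with GW3965 below vehicle in floxed mice and above it in Villin-Cre mice. The changes were -0.71 ± 0.25 (adjusted p = 0.037) and 1.98 ± 0.25 (adjusted p = 4e-06), and their difference was 2.69 ± 0.36 (interaction, adjusted p = 1.9e-05). The floxed call was lost under rescaling and without floxed GW3965 replicate 3.

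Nr1i3 lies at chr1:171213970-171220701 (GRCm38, plus strand), and 74.9% of its exon bases (3304 of 4414) are also exon of Tomm40l on the other strand. Whether reads were counted by strand is not stated in the sources used, so reads of this gene pair cannot be told apart. Tomm40l, which encodes a protein of the mitochondrial import channel family, averaged 4.12 ± 0.458, 1.89 ± 0.664, 2.65 ± 0.386 and 1.35 ± 0.593 CPM in floxed vehicle, floxed GW3965, Villin-Cre vehicle and Villin-Cre GW3965 ileum. It fell in both genotypes under GW3965 (-0.98, adjusted p = 0.0054, and -0.80, adjusted p = 0.013), so in Villin-Cre ileum the pair went opposite ways. The 250 bases before the Nr1i3 start (RefSeq, GRCm38.p6, chr1:171213720-171213969, plus strand) are shown because the effect of GW3965 on this gene differed between genotypes in both tissues, with an E-box (CACGTG, the same on both strands) in capitals.
Nr1i3: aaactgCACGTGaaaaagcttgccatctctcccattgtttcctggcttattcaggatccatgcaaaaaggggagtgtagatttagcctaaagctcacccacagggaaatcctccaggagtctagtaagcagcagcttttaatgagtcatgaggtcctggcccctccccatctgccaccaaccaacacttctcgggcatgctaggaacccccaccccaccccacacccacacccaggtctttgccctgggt
An E-box was in 6.02% of all 32851 promoter windows of this length and in 4 of 60 windows of the members. A direct repeat of AGGTCA with 4 bases between, the element LXR is known for, was in 5 windows of all and in 0 of 60.

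Genes known to follow PXR and CAR were counted beside the receptors. Of 8 tested, 4 rose and none fell in floxed ileum (median 0.53), and 7 rose and 1 fell in Villin-Cre ileum (median 4.69). Cyp2c55, a cytochrome P450 of the gut, averaged 0.216, 4.16, 0.109 and 154.5 CPM in floxed vehicle, floxed GW3965, Villin-Cre vehicle and Villin-Cre GW3965 mice. Its log2 fold change on the log2(CPM + 0.5) scale was 2.66 in floxed and 7.99 ± 0.21 in Villin-Cre mice. Both vehicle means lay under the 0.5 CPM filter, so Cyp2c55 was tested only because GW3965 libraries passed. No conclusion is drawn from its calls, which the counts above include. Abcb1a, a drug efflux pump, rose by 1.498 and by 4.76 ± 0.05 (adjusted p = 5.3e-20), and Ces2a, a carboxylesterase, by 4.63 ± 0.14 in Villin-Cre mice (adjusted p = 1.9e-13).

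Of Hnf4a, Hnf4g, Vdr and Nr1h4, the first and last rose in both genotypes and the other two in Villin-Cre mice. Hnf4a went from 848.1 ± 8.15 to 982.1 ± 30.0 CPM in floxed (log2 fold change 0.21) and from 823.2 ± 30.6 to 1097 ± 1.72 CPM in Villin-Cre ileum (0.41 ± 0.05, adjusted p = 8e-07). Hnf4g was called in Villin-Cre mice (147.3 ± 8.22 to 226.1 ± 12.8 CPM, 0.62 ± 0.08) and did not pass in floxed mice (0.14 ± 0.08, adjusted p = 0.19). Vdr, the receptor of calcium uptake, was at 403.6 ± 13.0 and 385.1 ± 12.4 CPM in the floxed groups (-0.07 ± 0.05, adjusted p = 0.27) and rose from 296.7 ± 1.26 to 376.1 ± 6.24 CPM in Villin-Cre mice (0.34 ± 0.05, adjusted p = 7.3e-06). Nr1h4 rose by 0.21 and 0.20. Of 7 tested FXR target genes 4 rose and none fell in floxed ileum (median 0.36), and 6 rose and 1 fell in Villin-Cre ileum (median 1.84). Slc51a, a subunit of the bile acid exporter of the ileum, rose by 0.74 and 1.58, and Fabp6, the ileal bile acid binding protein, by 2.08 in Villin-Cre mice. Of 8 tested HNF4α targets 5 rose and 1 fell in floxed, and 6 rose and 1 fell in Villin-Cre mice. The 8 enterocyte markers, of which 7 and 8 rose, moved beside these receptors.

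Of 4 tested steroid receptors 2 rose in each genotype and none fell, and both thyroid hormone receptors rose in each. Nr3c2, the mineralocorticoid receptor, which governs sodium uptake, went from 96.5 ± 2.78 to 149.7 ± 4.26 CPM in floxed (0.63 ± 0.05, adjusted p = 5.3e-08) and from 102.1 ± 3.78 to 157.6 ± 2.25 CPM in Villin-Cre ileum (0.62 ± 0.05, adjusted p = 2.1e-08). Nr3c1, the glucocorticoid receptor, rose by 0.30 and 0.41, and the thyroid hormone receptors Thra and Thrb by 0.45 and 0.43 and by 0.48 and 0.54. Esr1 (-0.21 and 0.36) and Pgr (0.24 and -0.12) did not pass. Thra shares 5.70% of its exon bases with Nr1d1 on the other strand, which also rose (0.84 and 1.10). Of 10 tested glucocorticoid-responsive genes 4 rose and 4 fell in floxed ileum, and 7 rose and 2 fell in Villin-Cre ileum. Of 5 tested thyroid hormone targets, 1 rose and 2 fell in floxed and none rose and 2 fell in Villin-Cre mice.

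For retinoic acid receptors the genotypes differed by member. Rara rose in both, by 0.39 and 0.52. Rarg went from 11.95 ± 0.275 to 16.0 ± 0.945 CPM in floxed ileum (0.41), while it was at 13.2 ± 0.221 and 11.3 ± 1.19 CPM in Villin-Cre ileum, and the interaction was -0.63 (adjusted p = 0.0032). Of 14 tested genes of retinoid handling 6 rose and 2 fell in floxed mice (median 0.18), and 6 rose and 5 fell in Villin-Cre mice (median -0.27). Bco1, which cleaves β-carotene, rose by 1.88 and 1.62, and Aldh1a1, which makes retinoic acid, by 1.11 and 2.13.

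The NR4A group, immediate early genes that respond to stimuli within hours, split by genotype. Nr4a1 measured 4.40, 3.35 and 2.89 CPM in floxed vehicle and 4.96, 5.60 and 4.88 CPM in floxed GW3965 libraries. The Villin-Cre levels were 6.53, 9.17 and 7.81 CPM in vehicle and 0.850, 1.49 and 1.61 CPM under GW3965. The floxed groups did not overlap, but the change missed the threshold (0.50 ± 0.21, adjusted p = 0.076), whereas the Villin-Cre change was -2.21 ± 0.21 (adjusted p = 1.1e-07). The interaction was -2.71 ± 0.29 (adjusted p = 2.5e-06).

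Nr4a3 measured 3.31, 2.65 and 2.89 CPM in floxed vehicle and 2.38, 2.21 and 2.75 CPM in floxed GW3965 libraries, which overlapped. With Villin-Cre, the libraries held 4.16, 4.44 and 3.50 CPM in vehicle and 1.32, 1.94 and 1.33 CPM under GW3965, with every treated library lower (-1.17 ± 0.19, adjusted p = 7.6e-05). Nr4a2, the third of the group, did not pass in either genotype (0.37 ± 0.17 and 0.05 ± 0.17). In Villin-Cre ileum Nr4a1 and Nr4a3 therefore fell without a called change of Nr4a2.

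The bases before each NR4A start (RefSeq, GRCm38.p6) are shown because Nr4a1 and Nr4a3 were called under GW3965 in both tissues and Nr4a2, the third of the group, was not, with TGACG, the core of the element bound by CREB, in capitals on either strand (CGTCA is its other-strand reading). Nr4a1 is at chr15:101266596-101266845 (plus strand), Nr4a2 at chr2:57124004-57124253 (minus strand) and Nr4a3 at chr4:48045055-48045152 (plus strand), where the stretch ends before the first annotated exon. The Nr4a1 window is that of the RefSeq start, which lies inside the span of the gene in GENCODE (chr15:101254269-101274795).
Nr4a1: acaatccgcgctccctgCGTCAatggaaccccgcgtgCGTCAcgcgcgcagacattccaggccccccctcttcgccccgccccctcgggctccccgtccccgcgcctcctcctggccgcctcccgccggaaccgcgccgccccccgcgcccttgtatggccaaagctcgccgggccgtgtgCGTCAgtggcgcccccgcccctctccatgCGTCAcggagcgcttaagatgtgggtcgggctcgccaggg
Nr4a2: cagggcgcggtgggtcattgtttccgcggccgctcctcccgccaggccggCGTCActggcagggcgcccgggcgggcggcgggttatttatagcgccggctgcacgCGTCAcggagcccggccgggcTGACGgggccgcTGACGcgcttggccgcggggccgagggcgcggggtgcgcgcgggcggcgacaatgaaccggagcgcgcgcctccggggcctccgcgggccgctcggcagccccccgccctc
Nr4a3: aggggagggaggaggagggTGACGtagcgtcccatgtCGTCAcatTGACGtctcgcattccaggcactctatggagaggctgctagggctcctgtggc
Each of the 3 windows of 250 bases held 4 matches, of which 3 lie in the part of Nr4a3 that is printed. TGACG was in 17.8% of all 32851 windows of this length and in 13 of 60 windows of the members. The whole palindrome TGACGTCA was in 1.55% of all windows and in none of these 3. Sequence matches are a description of the letters and do not show binding.

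Rora, a receptor of the circadian clock and of innate lymphoid cells, measured 17.2, 17.999 and 17.4 CPM in floxed vehicle and 12.6, 14.6 and 15.6 CPM in floxed GW3965 libraries. Villin-Cre libraries measured 17.7, 17.7 and 14.4 CPM in vehicle and 7.27, 7.76 and 7.06 CPM under GW3965. Neither pair overlapped, and the change passed the test in Villin-Cre mice (-1.12 ± 0.11, adjusted p = 2.8e-07) but not in floxed mice (-0.29 ± 0.11, adjusted p = 0.055). Nr2f2, a COUP-TF of stromal and vascular cells, rose from 21.9 ± 1.43 to 29.3 ± 1.87 CPM in floxed ileum (0.41), and it averaged 23.7 ± 2.28 and 18.8 ± 2.94 CPM in vehicle and treated Villin-Cre ileum (-0.34, not called after rescaling). Beside them, of 8 tested markers of enteric neurons and glia 1 rose and none fell in floxed and 1 rose and 6 fell in Villin-Cre mice, and of 7 tested T and NK cell markers 3 rose and none fell in floxed and 7 fell in Villin-Cre mice. The summed level of the T and NK cell list was 42.4 to 45.1, 60.3 to 66.3, 118.3 to 127.3 and 33.9 to 41.5 CPM in floxed vehicle, floxed GW3965, Villin-Cre vehicle and Villin-Cre GW3965 libraries. The part of these cell types in the result was not tested.

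Esrrg, an estrogen-related receptor of oxidative tissues, fell in both genotypes. It measured 2.22, 3.59 and 3.94 CPM in floxed vehicle and 1.41, 1.07 and 0.610 CPM in floxed GW3965 libraries. Among Villin-Cre libraries it measured 1.64, 1.52 and 1.67 CPM in vehicle and 0.614, 0.165 and 0.379 CPM under GW3965. All treated libraries lay below the vehicle libraries of their genotype (-1.30 ± 0.27, adjusted p = 0.0011, and -1.28 ± 0.27, adjusted p = 0.00066). Of the 8 smooth muscle markers, all 8 fell in each genotype (medians -1.15 and -2.86), and their part in the fall of Esrrg was not tested. Esrra, its relative, rose in Villin-Cre mice (0.26).

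**Figure D3:**
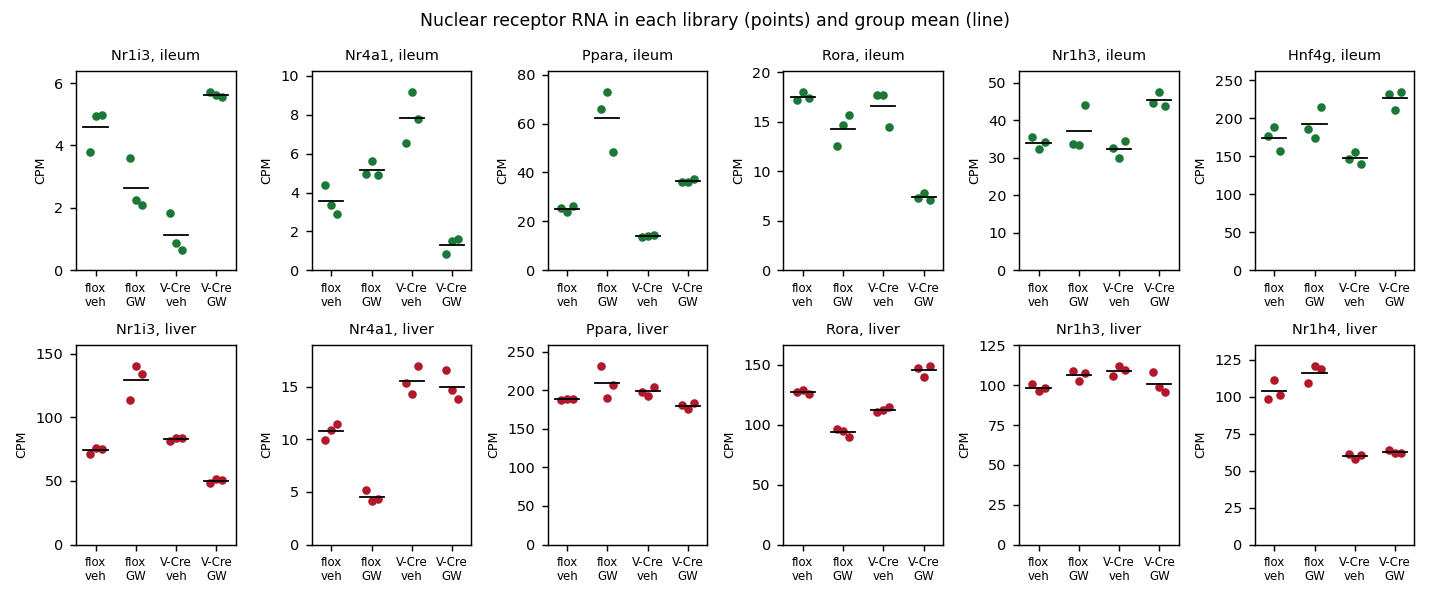
Level in CPM of 6 members per tissue in every library (points, 3 a group) with the group mean (line), for floxed and Villin-Cre (V-Cre) mice given vehicle (veh) or GW3965 (GW). In ileum Nr4a1 of Villin-Cre GW3965 lies at 0.850 to 1.61 CPM and Nr1i3 of the same group at 5.54 to 5.71 CPM, and in liver Nr1i3 is highest in floxed GW3965 (113.5 to 140.2 CPM).

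Between genotypes, the family was compared in each treatment. In vehicle ileum 1 member was higher and 7 lower in Villin-Cre than in floxed mice, against 9.61% and 30.7% of all genes, and under GW3965 6 were higher and 11 lower, against 13.6% and 38.3%. Member medians were -0.04 and -0.04, beside -0.18 and -0.24 over all genes. Rescaling by the median of gene ratios moved these all-gene medians to 0.04 and 0.00 and the split of members to 16 higher and 4 lower in vehicle and 16 higher and 5 lower under GW3965. Directions are therefore given for members called under both scalings, 1 higher and 4 lower in vehicle and 6 higher and 5 lower under GW3965.

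In vehicle ileum, Nr1i3 (-1.71 ± 0.25, adjusted p = 4.6e-05), Ppara (-0.83 ± 0.11, adjusted p = 1.8e-05), Nr5a2 (-0.74 ± 0.07, adjusted p = 4.2e-07) and Vdr (-0.44 ± 0.05, adjusted p = 1.1e-06) were lower in Villin-Cre mice. Nr5a2 encodes LRH-1, which supports crypt renewal and local steroid synthesis, and it averaged 55.8 ± 4.04 CPM in vehicle-treated floxed mice against 33.3 ± 1.70 CPM with Villin-Cre. Nr4a1 was higher (1.05 ± 0.21, adjusted p = 0.00072). Of the PPARα targets, 4 were lower and 1 higher in this comparison, with Pdk4 at -1.27 and Cpt1a at -1.07. Smooth muscle markers did not pass in this comparison (0 of 8 in either direction), while 6 of 7 T and NK cell markers were higher. Of 6 markers of dividing cells all 6 were lower, with a summed level of 333.6 to 383 CPM in floxed and 94.1 to 100.2 CPM in Villin-Cre vehicle libraries. Of 9 fibroblast markers 5 were higher and none lower (982.8 to 1017 and 1382 to 1475 CPM), and of 6 adipocyte markers 1 was higher and 4 lower (88.9 to 94.8 and 59.3 to 62.7 CPM). None of these markers was at 0, and their part in the values of the members was not tested.

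Under GW3965, Nr4a1 (-1.66 ± 0.21, adjusted p = 5e-06), Rora (-0.91 ± 0.11, adjusted p = 4.7e-06), Ppara (-0.75 ± 0.11, adjusted p = 3e-05), Nr2f2 (-0.64) and Rxrb (-0.56 ± 0.09, adjusted p = 3.9e-05) were lower in Villin-Cre ileum under both scalings. Nr1i3 (0.99 ± 0.25, adjusted p = 0.0035), Nr1h3 (0.30 ± 0.10, adjusted p = 0.015), Esrra (0.28), Rara (0.26), Hnf4g (0.24) and Hnf4a (0.16) were higher. In the same comparison 8 of 8 smooth muscle markers and 7 of 7 T and NK cell markers were lower and 7 of 8 enterocyte markers higher, and their part in these differences was not tested.

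**Figure D4:**
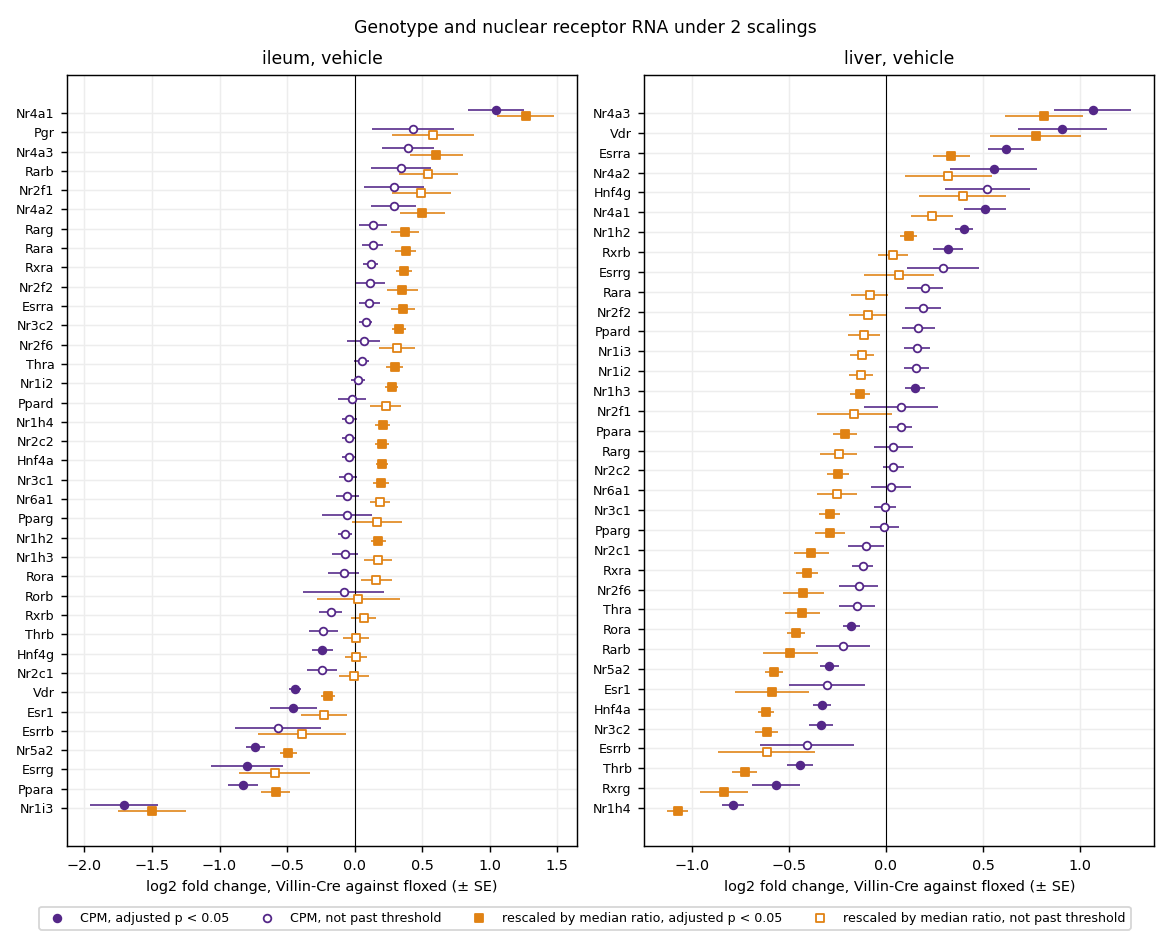
Log2 fold change of every tested member in vehicle-treated mice, Villin-Cre against floxed, for ileum and liver, on the CPM scale (circles) and after rescaling by the median of gene ratios (squares), with bars of 1 standard error from the limma fit (3 libraries a group) and filled symbols for an adjusted p under 0.05. Rescaling shifts ileal values up and liver values down, while Nr1i3 (-1.71 on the CPM scale) stays lowest in ileum and Nr1h4 (-0.79) lowest in liver.

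The effect of GW3965 differed between genotypes for 12 members in the ileum, 6 with a larger and 6 with a smaller value in Villin-Cre mice, against 14.6% and 18.4% of all genes. All 12 were also called after rescaling. They were Nr1i3, Hnf4g, Vdr, Nr5a2, Nr1h3 and Hnf4a on the higher side and Nr4a1, Nr4a3, Rora, Nr2f2, Rarg and Rxrb on the lower side. The PPARs were not among them: the difference was 0.08 ± 0.16 (adjusted p = 0.75) for Ppara, 0.49 ± 0.26 (adjusted p = 0.17) for Pparg and -0.06 ± 0.15 (adjusted p = 0.79) for Ppard.

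In the liver, GW3965 gave fewer calls in Villin-Cre than in floxed mice, among the members as among all tested genes. In floxed mice 6 of 36 tested members were higher and 9 lower, against 10.4% and 19.7% of all 17520 tested genes. In Villin-Cre mice 1 was higher and 3 lower, against 2.85% and 9.03%. Member medians were 0.01 and -0.11, beside -0.04 and -0.08 over all genes. Of the calls in floxed mice 1, Nr1h2, was shared in the same direction, which is 11.1% of the 9 that fell in floxed and 33.3% of the 3 that fell in Villin-Cre mice; over all genes those shares were 16.5% and 36%. Esrrg and Nr1i3 were called higher in floxed and lower in Villin-Cre mice, and Rora the reverse. Over all genes, 208 were called higher in floxed and lower in Villin-Cre mice (11.5% and 13.1% of those lists) and 158 the reverse (4.58% and 31.7%). Without floxed GW3965 replicate 1, the library apart from its group, 11 members were higher and 9 lower in floxed mice and 3 higher and 8 lower in Villin-Cre mice.

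**Figure D5:**
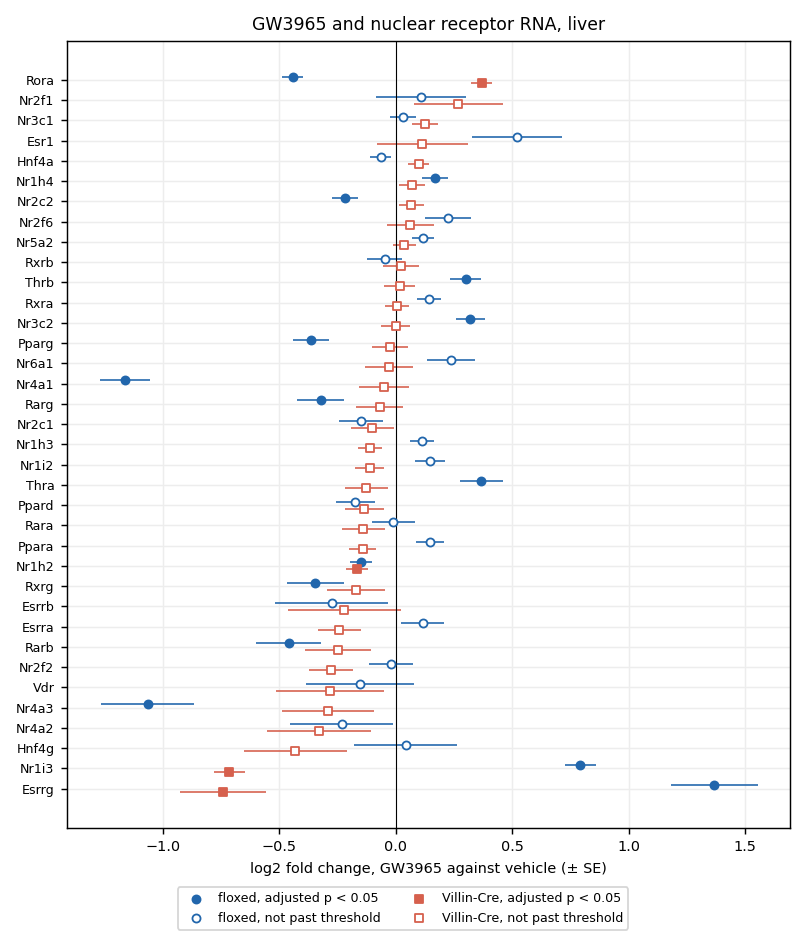
Log2 fold change of every tested member in liver, GW3965 against vehicle, in floxed and in Villin-Cre mice, with bars of 1 standard error from the limma fit (3 libraries a group) and filled symbols for an adjusted p under 0.05. Nr1i3 and Esrrg lie above 0 in floxed and below 0 in Villin-Cre mice, and Rora lies the other way.

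Of Nr1h2, Nr1h3, Rxra and Rxrb, only Nr1h2 was called under GW3965 in the liver. Nr1h2 measured 63.3, 65.5 and 67.2 CPM in floxed vehicle, 57.2, 59.8 and 59.3 in floxed GW3965, 85.6, 86.5 and 87.1 in Villin-Cre vehicle and 79.5, 77.97 and 73.3 CPM in Villin-Cre GW3965 libraries. Each treated group lay below its vehicle group, and both Villin-Cre groups above both floxed groups. The GW3965 changes were -0.15 ± 0.05 (adjusted p = 0.027) and -0.17 ± 0.05 (adjusted p = 0.036), and neither was called after rescaling (-0.10 and -0.07).

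Nr1h3 measured 100.5, 96.4 and 98.1 CPM in floxed vehicle, 109.0, 102.9 and 107.5 in floxed GW3965, 105.9, 111.9 and 109.6 in Villin-Cre vehicle and 108.4, 98.8 and 96.1 CPM in Villin-Cre GW3965 libraries. The floxed groups were separate, the Villin-Cre groups overlapped, and neither change passed (adjusted p = 0.11 and 0.18). Of 9 tested LXR targets in liver 1 rose and 6 fell in floxed mice (median -0.53), and 4 rose and none fell in Villin-Cre mice (median 0.10). Abca1 rose by 0.49 and 0.75, while Scd1 fell by 1.97 on the log2 scale in floxed and rose by 0.92 in Villin-Cre mice.

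Rxra measured 567.5, 549.6 and 542.97 CPM in floxed vehicle, 663.6, 578.0 and 592.2 in floxed GW3965, 519.9, 510.7 and 495.9 in Villin-Cre vehicle and 509.6, 521.4 and 502.6 CPM in Villin-Cre GW3965 libraries. Rxrb measured 41.1, 45.3 and 46.8 CPM in floxed vehicle, 48.6, 38.9 and 41.6 in floxed GW3965, 54.6, 55.2 and 56.5 in Villin-Cre vehicle and 58.8, 56.7 and 53.5 CPM in Villin-Cre GW3965 libraries. Rxra was separate between the floxed groups and overlapped between the Villin-Cre groups, Rxrb overlapped in both genotypes, and no change passed the test (adjusted p from 0.054 to 0.95).

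Nr1i3, which in liver drives the clearance of drugs and bilirubin, measured 71.5, 76.3 and 74.8 CPM in floxed vehicle and 113.5, 140.2 and 134.4 CPM in floxed GW3965 libraries. In Villin-Cre mice it measured 81.8, 83.5 and 83.7 CPM in vehicle and 48.4, 51.9 and 50.8 CPM under GW3965. The groups were separate and in opposite order, with changes of 0.79 ± 0.07 (adjusted p = 1.3e-06) and -0.72 ± 0.07 (adjusted p = 2e-05) and an interaction of -1.51 ± 0.10 (adjusted p = 2.3e-07). The opposite-strand partner Tomm40l averaged 6.26, 8.13, 8.17 and 6.87 CPM in floxed vehicle, floxed GW3965, Villin-Cre vehicle and Villin-Cre GW3965 liver (0.35, adjusted p = 0.026, and -0.24, adjusted p = 0.18). Its interaction was called too (-0.58, limma adjusted p = 0.016), with the same sign as that of Nr1i3. Reads of the pair cannot be told apart in liver either. Compared with the ileum, where GW3965 libraries were lower in floxed and higher in Villin-Cre mice, the order of Nr1i3 was the reverse in both genotypes, which was not tested across tissues. Of 8 tested PXR and CAR targets 1 rose and 3 fell in floxed liver and none rose and 2 fell in Villin-Cre liver. Cyp2c55 fell by 1.70 on the log2 scale and Ces2a rose by 0.46 in floxed mice.

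Esrrg followed the same order in the liver. It measured 1.48, 1.71 and 1.80 CPM in floxed vehicle and 4.69, 4.83 and 5.79 CPM in floxed GW3965 libraries. The Villin-Cre levels were 2.21, 1.97 and 2.28 CPM in vehicle and 0.664, 1.36 and 1.33 CPM under GW3965. All groups compared were separate (1.37 ± 0.19, adjusted p = 7.6e-05, and -0.74 ± 0.19, adjusted p = 0.019), and the interaction was -2.11 ± 0.26 (adjusted p = 8e-05).

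Rora, which in liver opposes lipid storage, ran against them. It was at 127.1 ± 1.39 CPM in floxed vehicle and 93.4 ± 3.40 CPM in floxed GW3965 mice, and at 112.2 ± 2.30 and 145.1 ± 4.62 CPM (SD, n = 3) in the Villin-Cre groups. Its changes were -0.44 ± 0.04 (adjusted p = 5.2e-06) and 0.37 ± 0.04 (adjusted p = 0.00015), and the interaction was 0.81 ± 0.06 (adjusted p = 1.5e-06).

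Nr4a1 and Nr4a3, which in liver are known to be induced by fasting and glucagon signals, fell in floxed mice. Nr4a1 measured 9.96, 10.8 and 11.4 CPM in floxed vehicle and 5.14, 4.12 and 4.33 CPM in floxed GW3965 libraries. With Villin-Cre, the libraries held 15.4, 14.3 and 16.9 CPM in vehicle and 16.5, 14.6 and 13.8 CPM under GW3965. The floxed groups were separate (-1.16 ± 0.11, adjusted p = 2.8e-06) and the Villin-Cre groups overlapped (-0.05 ± 0.11), with an interaction of 1.11 ± 0.15 (adjusted p = 0.00019).

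Nr4a3 measured 2.82, 1.81 and 2.11 CPM in floxed vehicle and 0.680, 0.532 and 1.29 CPM in floxed GW3965 libraries. Villin-Cre libraries measured 4.70, 5.44 and 5.43 CPM in vehicle and 4.06, 4.30 and 4.07 CPM under GW3965. Both pairs of groups were separate, and the change passed in floxed mice (-1.07 ± 0.20, adjusted p = 0.001) but not in Villin-Cre mice (-0.29 ± 0.20, adjusted p = 0.38). The interaction missed the threshold (0.77 ± 0.28, adjusted p = 0.068) and was 0.85 and called after rescaling. Falls of Nr4a1 and Nr4a3 were thus called in Villin-Cre mice in the ileum and in floxed mice in the liver.

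The other called members of floxed liver moved by less. Thra (0.37), Nr3c2 (0.32), Thrb (0.30) and Nr1h4 (0.17) rose, and Rarb (-0.46), Pparg (-0.36), Rxrg (-0.35), Rarg (-0.32) and Nr2c2 (-0.22) were lower, of which Rxrg was not called after rescaling. Rarb shares 34.1% of its exon bases with Top2b and Nr2c2 30.7% with Mrps25, each on the other strand, and these partners, at 64.03 and 8.55 CPM in floxed vehicle liver, did not pass in this comparison (-0.03 and 0.08). Nr1d1, the opposite-strand partner of Thra, rose with it (0.45, limma adjusted p = 0.044). Esr1, which measured 32.2, 66.0 and 66.6 CPM in floxed GW3965 libraries against 34.5 to 37.6 CPM in vehicle, did not pass (0.52 ± 0.19, adjusted p = 0.058), and the low value is that of the library apart. Of 12 tested PPARα targets none rose and 8 fell in floxed (median -0.37) and none rose and 6 fell in Villin-Cre liver (median -0.25), while Ppara itself was not called. Among them Fgf21, a fasting hormone of liver, fell by 2.27 and Ehhadh by 1.13 on the log2 scale in floxed mice. In the same floxed comparison 8 of 9 fibroblast, 7 of 7 endothelial, 4 of 5 bile duct and 6 of 6 cell division markers fell. The summed level of 6 hepatocyte markers was lower as well, at 74820 to 77210 CPM in floxed vehicle and 52590 to 62760 CPM in floxed GW3965 libraries. The part of all these markers in the values of the members was not tested.

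Liver also differed between genotypes. In vehicle 8 members were higher and 7 lower in Villin-Cre than in floxed mice, against 45.1% and 11.7% of all genes, and under GW3965 11 were higher and 13 lower, against 40.9% and 15%. Member medians were 0.04 and -0.06, beside 0.26 and 0.21 over all genes. Rescaling moved those all-gene medians to 0.01 and 0.00 and the member splits to 4 higher and 18 lower in vehicle and 5 higher and 19 lower under GW3965. Called under both scalings were 4 higher and 7 lower members in vehicle, and 5 higher and 13 lower under GW3965. The higher counts in each treatment include Vdr, which passed the filter only through Villin-Cre libraries.

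Nr1h4, the bile acid sensor that limits bile acid synthesis, showed the clearest difference in vehicle. It measured 98.3, 111.0 and 101.3 CPM in floxed vehicle and 60.9, 57.7 and 60.4 CPM in Villin-Cre vehicle libraries, and 109.4, 120.5 and 119.0 CPM in floxed GW3965 and 64.0, 62.1 and 61.6 CPM in Villin-Cre GW3965 libraries. Every Villin-Cre library lay below every floxed library (-0.79 ± 0.06, adjusted p = 3.4e-08, and -0.89 ± 0.06, adjusted p = 6.7e-09). Of 5 tested FXR targets 1 was higher and 1 lower in vehicle. Abcb11, the bile salt export pump, had a log2 fold change of -1.64 ± 0.04 (adjusted p = 3.2e-12), and Nr0b2, the FXR-induced repressor SHP, was higher in vehicle (0.99) and lower under GW3965 (-0.96).

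Hnf4a, which holds the hepatocyte programme, was at 683.8 ± 9.14 and 543.5 ± 9.23 CPM in floxed and Villin-Cre vehicle liver (-0.33 ± 0.05, adjusted p = 2.5e-05). Rxrg (-0.57), Thrb (-0.44), Nr3c2 (-0.33), Nr5a2 (-0.29) and Rora (-0.18) were lower as well. Nr4a3 (1.06 ± 0.20, adjusted p = 0.00038), Esrra (0.62 ± 0.09, adjusted p = 5.3e-05) and Nr1h2 (0.40 ± 0.05, adjusted p = 6.1e-06) were higher. Vdr was called higher too (0.91, from 0.186 to 0.770 CPM), at levels near the 0.5 CPM filter. Floxed liver libraries held at most 0.306 CPM of Vdr. It was therefore tested only because Villin-Cre libraries passed, and no conclusion is drawn from its call. Beside these differences, the summed level of 8 macrophage markers was 639.3 to 647.2 CPM in floxed and 1509 to 1553 CPM in Villin-Cre vehicle libraries, that of 5 bile duct markers 120.2 to 121.3 and 275.8 to 281.8 CPM, that of 9 fibroblast markers 840.5 to 844.8 and 1467 to 1487 CPM, and that of 6 hepatocyte markers 74820 to 77210 and 49850 to 50380 CPM, with no marker of these lists at 0. All 8, 5 and 9 of the first 3 lists were higher and all 6 hepatocyte markers lower, and their part in the values of the members was not tested. Of 7 tested HNF4α targets 6 were lower and none higher (median -0.37), and of 12 PPARα targets 9 were lower and 3 higher (median -0.63).

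Under GW3965, Nr1i3 (-1.35 ± 0.07, adjusted p = 5.9e-10) and Esrrg (-1.82 ± 0.19, adjusted p = 1.1e-06) were lower in Villin-Cre than in floxed liver, and Nr4a1 (1.62 ± 0.11, adjusted p = 1.2e-08), Nr4a3 (1.84 ± 0.20, adjusted p = 2e-06) and Rora (0.63 ± 0.04, adjusted p = 2e-08) were higher. Thrb (-0.73), Esr1 (-0.71), Nr3c2 (-0.65) and Thra (-0.64) were also lower, as was Nr1d1 (-1.01), the opposite-strand partner of Thra. The effect of GW3965 differed between genotypes for 11 liver members, 4 with a larger and 7 with a smaller value in Villin-Cre mice, against 10.2% and 9.7% of all genes, and 4 and 4 of them were called under both scalings. Lost on rescaling were Nr1h3 (-0.18), Ppara (-0.24) and Thrb (-0.24).

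Receptors act through shared cofactors, whose transcripts were listed too. Of 16 tested coactivators 4 rose and 4 fell in floxed ileum (median 0.07) and 6 rose and 5 fell in Villin-Cre ileum under GW3965 (median 0.12). Ncoa4 rose by 1.39 in Villin-Cre mice, and Ppargc1b, a partner of PPAR and estrogen-related receptors, fell by 0.81 on the log2 scale in floxed mice. Of 11 tested corepressors 3 rose and 1 fell in floxed and 7 rose and 2 fell in Villin-Cre ileum, with Sin3a at 1.58 in the latter. Over all tested genes, 14.7% rose and 20.9% fell in floxed ileum, and 21.5% rose and 31.1% fell in Villin-Cre ileum. In the liver, GW3965 called none of 16 coactivators in floxed mice, where 6 of 11 corepressors fell (median -0.17). Over all tested genes, 10.4% rose and 19.7% fell there. Between genotypes in vehicle liver 9 of 16 coactivators and 8 of 11 corepressors were higher and none lower, with medians of 0.22 and 0.34 that lie near the 0.26 of all genes. In that comparison 45.1% of all tested genes were higher and 11.7% lower.

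The remaining members were seldom called or scarce, and the lack of a call does not show a steady level. In the ileum 8 tested members, Esrrb, Nr2f1, Nr2f6, Nr4a2, Pgr, Ppard, Rarb and Rorb, were called in none of the 5 comparisons on the CPM scale. In the liver Esrrb, Hnf4g, Nr1i2, Nr2c1, Nr2f1, Nr2f2, Nr3c1, Nr6a1 and Rara were called in none. The share of all genes called in none was not counted in either tissue. Among the 8 of the ileum was Nr2f6, a COUP-TF relative that represses transcription, at 46.0 to 70.0 CPM. Of its exon bases, 54.4% lie opposite Ocel1. In the liver Nr2f6 ranged from 87.4 to 145.8 CPM, and it was lower in Villin-Cre than in floxed mice under GW3965 (-0.30). Ocel1 was lower in the same comparison (-0.36, limma adjusted p = 0.021). The progesterone receptor Pgr ranged from 0.578 to 2.16 CPM in the ileum and did not exceed 0.217 CPM in the liver. The second estrogen receptor, Esr2, stayed at or below 0.284 CPM in every library, and the neural and retinal receptors Nr2e1 and Nr2e3 at or below 0.289 and 1.05 CPM. Nr5a1, the steroidogenic factor of adrenal gland and gonads, did not exceed 0.324 CPM.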

How the data were processed

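RNA was measured in 12 ileal and 12 liver libraries, 3 per group, assigned by labelled genotype and treatment. According to the labels' protocols, RNA was purified with RNeasy, depleted of ribosomal RNA by RiboErase, primed with random hexamers and read as 150-base pairs on a NovaSeq. The submitters' processing notes name STAR 2.5.1a, featureCounts 1.4.6-p5, Subread, bcl2fastq and GRCm38. Annotation release, strand setting and log formula were not given in the sources used.

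What the authors deposited are log2 expression values, 40757 entries per tissue, of which 276 exact repeats were dropped. The lowest value, -5.62 in each of the 24 libraries, stood for 0 reads, and subtracting its linear value gave CPM that were whole multiples of 1 read (100% of the low values tested, tolerance 0.05 reads). Even numbers made up 66.7 to 70.4% of low ileal read numbers and 65.5 to 68.4% of those in liver. The design had a test for each possible unit, and that for normalized values was applied: limma 3.58.1 (R 4.3.3) with an empirical Bayes trend on log2(CPM + 0.5), fitting group means within a tissue, with Benjamini-Hochberg adjustment over all tested genes and a threshold of 0.05. Fold changes on this scale understate the change of low genes. Testing needed 0.5 CPM in 3 or more libraries. The steps were tested on simulated data.

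All 43 members may be named. Values of every library are given for those called with a log2 fold change of at least 1 in either direction and a mean of at least 1 CPM, and for Nr1h2, Nr1h3, Rxra and Rxrb; those of Nr1h4 and Esr1 in liver were added after their values were seen. Members and gene lists were chosen with earlier results of these data known. Of listed genes, Apoa4 and Apoa1 are named for their share of summed levels. The others named are those with the smallest p in a comparison, up to 3 per list. Some genes this takes are not reported here. Promoter sequences are from RefSeq, which had 60 windows for 39 of 43 members, and exons from GENCODE on GRCm38. Results were recomputed after median-of-ratios rescaling, without the filter, with a pseudocount of 2, on the log2 values as deposited, with voom on recovered reads, in fits of only the groups compared, with a replicate block, after averaging close libraries (variance under 4 times that of read sampling) and without each library.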

Additional observations from a re-analysis of the deposited data

Results flagged for a closer look

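The change under GW3965 differed between the genotypes by the interaction test (limma, adjusted p under 0.05) for 12 members in the ileum and 11 in the liver. In the ileum 6 of 37 tested members had a larger and 6 a smaller value in Villin-Cre mice, against 14.6% and 18.4% of all genes. In the liver 4 of 36 had a larger and 7 a smaller value, against 10.2% and 9.7%. All values are the Villin-Cre minus the floxed log2 change.

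In the ileum the difference was 2.69 for Nr1i3, 0.48 for Hnf4g, 0.41 for Vdr, 0.41 for Nr5a2, 0.37 for Nr1h3 and 0.20 for Hnf4a. It was -2.71 for Nr4a1, -0.94 for Nr4a3, -0.83 for Rora, -0.75 for Nr2f2, -0.63 for Rarg and -0.39 for Rxrb.

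In the liver the difference was 1.11 for Nr4a1, 0.81 for Rora, 0.34 for Pparg and 0.28 for Nr2c2. It was -2.11 for Esrrg, -1.51 for Nr1i3, -0.49 for Thra, -0.32 for Nr3c2, -0.29 for Ppara, -0.28 for Thrb and -0.23 for Nr1h3. After rescaling by the median of gene ratios, the liver differences of Nr1h3, Ppara and Thrb were no longer called. Nr1i3, Nr4a1 and Rora were called in each tissue under both scalings, with opposite signs.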

How the results depend on the processing

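Of 150 called member values, rescaling by the median of gene ratios kept 121 and added 57 calls. Under it, values changed sign for Hnf4g (0.0093) in vehicle ileum, Nr2c2 (0.0964) and Nr1h2 (0.0281) in GW3965 ileum, Nr1h3 (-0.1356) in vehicle liver and Ppard (-0.025) in GW3965 liver, all Villin-Cre against floxed; these genotype contrasts moved with the shift of the all-gene median. Members called in vehicle ileum between genotypes, 8 in the report, were 20 under rescaling and 5 with no filter. With only the groups compared in the fit, liver calls were 9 instead of 4 for GW3965 in Villin-Cre mice and 25 instead of 15 between genotypes in vehicle. Averaging close libraries left 0, 3, 0, 1 and 0 ileal calls (GW3965 in floxed, in Villin-Cre, genotype in vehicle, genotype under GW3965, interaction) and 0, 0, 0, 5 and 0 liver calls, with 1 residual degree of freedom per tissue. Leaving out 1 library gave, in the same order, 16 to 18, 25 to 29, 5 to 10, 12 to 18 and 10 to 14 ileal calls and 10 to 20, 2 to 11, 13 to 23, 20 to 28 and 5 to 16 liver calls, and 113 of the 150 values kept their call whichever library was left out. Counts moved by over 1.5 times without ileal floxed vehicle 2 or Villin-Cre vehicle 1 (5 in vehicle between genotypes), without liver floxed GW3965 1 (11 for GW3965 in Villin-Cre mice, 23 in vehicle between genotypes) or Villin-Cre vehicle 1 or 3 (2 for GW3965 in Villin-Cre mice), and for the liver interaction without any floxed vehicle library, Villin-Cre vehicle 1 or Villin-Cre GW3965 2 or 3 (7) or Villin-Cre vehicle 3 (5). The cause was not tested. A pseudocount of 2 kept 148, the deposited log2 values 145, voom 145 and no filter 133 calls.

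Replicate numbers did not pair the libraries: deviations of same-numbered libraries had ileal correlations of -0.04 to 0.05 and liver correlations of -0.03 to 0.03. A replicate block kept 143 of the 150 calls and added 6. Members near 0.5 CPM rest on few reads, which limits their precision.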
